A study of Mus musculus with 22 samples.

Results

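Antibody genes of the mouse distal colon were followed through 10 genes of the deposited count table, chosen by symbol from its 46078 genes. They were the 8 heavy chain constant genes Ighm, Ighd, Ighg3, Ighg1, Ighg2b, Ighg2c, Ighe and Igha, the kappa light chain constant gene Igkc, and Jchain. All 10 had counts in at least 1 library, and 9 of them passed the filter on low counts in every comparison. Ighe did not. RNA came from distal colon segments of 22 mice. The C57BL/6 group (spelled C57BLK6 in the labels) held 8 wild-type mice aged 14 weeks, 4 males and 4 females. The Winnie group held 7 mice aged 14 weeks, 3 males and 4 females, which carried a missense mutation of Muc2, the gene of the main secreted mucin, and developed colitis without any added agent. The Winnie-Prolapse group held 7 Winnie mice with prolapse aged 18 weeks, 4 males and 3 females, so prolapse and the later age cannot be told apart. The study described Winnie and C57BL/6 mice as coming from the same breeding colony and called the C57BL/6 mice littermates. The labels name no litter or batch, so it is not known which mice shared a litter. A date stands in the title of 1 Winnie-Prolapse library, and its meaning is not given. The labels name no agent given to any group.

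An antibody is built from heavy and light chains, and the constant gene of the heavy chain sets its isotype. A naive B cell makes IgM and IgD from the same rearranged heavy chain locus by splicing. Class switch recombination then deletes the DNA between the rearranged variable region and a constant gene further along the locus, so that the cell makes an IgG subclass, IgE or IgA. Plasma cells of the gut mucosa make mainly IgA, which is joined into dimers by the J chain and carried across the epithelium by the polymeric immunoglobulin receptor.

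On GRCm38 the 8 heavy chain constant genes lie on the minus strand of chromosome 12 in the order Ighm, Ighd, Ighg3, Ighg1, Ighg2b, Ighg2c, Ighe, Igha, from Ighm at chr12:113418558-113422730 to Igha at chr12:113254830-113260236. Igkc is a gene of a single exon at chr6:70726435-70726966, and Jchain is at chr5:88519809-88527891. The 4 IgG subclass genes are copies of each other, so the hinge exons are shown first, as their length and cysteines differ between the subclasses. The coding sequence of Ighg2b and Ighg2c was 85.6% identical, and the other IgG pairs were 73.9 to 75.5% identical. Each hinge exon below is written 5′ to 3′ from the GENCODE transcripts of GRCm38, and capitals mark the in-frame cysteine codons. Cysteines of the hinge form disulfide bonds between the chains of the antibody.
Ighg3 hinge, chr12:113360529-113360576, minus strand: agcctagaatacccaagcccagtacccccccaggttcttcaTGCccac
Ighg1 hinge, chr12:113329844-113329882, minus strand: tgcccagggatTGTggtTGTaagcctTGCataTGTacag
Ighg2b hinge, chr12:113307261-113307326, minus strand: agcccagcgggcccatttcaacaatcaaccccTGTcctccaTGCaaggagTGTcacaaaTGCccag
Ighg2c hinge, chr12:113288263-113288325, minus strand: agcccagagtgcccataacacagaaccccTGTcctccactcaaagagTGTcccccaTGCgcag

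The hinge exon held 1 cysteine codon in Ighg3, 4 in Ighg1, 4 in Ighg2b and 3 in Ighg2c. No window of 100 bases was shared between any of the annotated exons of the 10 genes. At 50 bases, 5.49% of the windows of Ighg2c and 4.15% of those of Ighg2b also occurred in another IgG gene, so counts of these genes can share a few reads.

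The second set of sequences is the coding end of the secreted heavy chains, since it decides which isotypes can bind the J chain. IgM and IgA end in a tailpiece whose second-last residue is a cysteine that bonds to the J chain, and IgG has no such tailpiece. The last 54 coding bases of the secreted forms are given 5′ to 3′ with that cysteine codon in capitals.
Ighm tailpiece, chr12:113420870-113420923, minus strand: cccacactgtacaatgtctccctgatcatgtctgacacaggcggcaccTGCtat
Igha tailpiece, chr12:113258771-113258824, minus strand: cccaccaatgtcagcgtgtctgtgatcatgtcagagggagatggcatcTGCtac
Ighg2b end, chr12:113306392-113306445, minus strand: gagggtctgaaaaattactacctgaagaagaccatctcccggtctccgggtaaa
Ighg2c end, chr12:113287392-113287445, minus strand: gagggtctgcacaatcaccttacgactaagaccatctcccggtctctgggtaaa

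The libraries held 24.8 to 36.3 M counts, and no pair of libraries of 1 group agreed within sampling noise. Levels are given as CPM, the counts of a gene as a share of its library total, scaled to 1 M counts. The sum of 10 colon epithelium markers was 16687 to 21702 CPM in C57BL/6 and 6253 to 14530 CPM in Winnie-Prolapse. In Winnie it was 9998 to 26432 CPM, with 5 of 7 libraries below every C57BL/6 library and replicates 4 and 6 above them all. Members of this list went both ways in Winnie-Prolapse against C57BL/6, as Cdh17 was called higher and Slc26a3, Clca1 and Car1 lower. That was 1 and 3 of 10 genes, where 1712 and 1474 of all 17397 genes were called higher and lower. Smooth muscle markers fell in Winnie-Prolapse against C57BL/6, with 6 of 6 past the limits where 1474 of all 17397 genes were lower, and the summed level of this list was 6686 to 12048 CPM in C57BL/6 and 1309 to 3178 CPM in Winnie-Prolapse. In Winnie, 6 of 6 smooth muscle markers were lower (1986 to 7309 CPM in sum) and 6 of 7 T cell markers higher at an adjusted p under 0.05, where 1475 of all 17289 genes were lower and 1282 higher. Squamous epithelium markers, which a colon should lack, summed to 1.88 to 2.82 CPM in C57BL/6 and to 2.24 to 3267 CPM in Winnie-Prolapse, with 5 of the 7 libraries above 166 CPM, and Winnie replicate 2 held 50.7 CPM. In Winnie-Prolapse replicate 6, milk genes took 17.96% of all counts. In the other 21 libraries their share was at most 0.00542%. The part of these tissues in the results was not tested. In bulk RNA of this kind, more cells of a type and more RNA per cell cannot be told apart.

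The first question was how the level of each gene differed between colitis and wild-type colon. Winnie-Prolapse colon held more RNA of the genes for IgA, the J chain, kappa and the IgG subclasses than C57BL/6 colon. In Winnie the fitted levels of these genes were higher at an adjusted p under 0.05, but none passed the limits of the study. Ighg1 and Ighg2c missed 0.05 there in some fits. The levels of Ighm and Ighd overlapped throughout. At the limits of the study (adjusted p under 0.001 and at least 1.5-fold, edgeR quasi-likelihood test), 7 of 9 genes rose in Winnie-Prolapse against C57BL/6, where 9.84% of all 17397 genes tested did. The 7 include Ighg2c and Ighg3, which met the filter on low counts through the colitis libraries, as 2 and 3 of 8 C57BL/6 libraries reached the level it asks for, so these calls are not read as support. Without genes of this kind, which stayed below that level in over 50% of the libraries of their lower group, 5 of 7 rose, where 9.21% of 16380 genes did. In Winnie against C57BL/6, 0 of 9 passed those limits, where 0.0868% of 17289 genes did. At an adjusted p under 0.05 with the same fold, 7 of 9 were higher in Winnie, against 7.42% of all genes, and the same 7 genes were higher in Winnie-Prolapse, against 16.7% of all genes. Without genes of the same kind it was 5 of 7 in both, against 7.12 and 16% of genes. The count of 0 in Winnie stood beside 7 of 9 genes at an unadjusted p under 0.05, where 6901 of all 17289 genes passed. DESeq2 called 6 of 10 higher, where it called 770 of 21020 genes higher, and limma-voom called 0 of 9, where it called 0 of 17289. Without Winnie replicate 5, the library with the lowest Igha, Igkc and Jchain of its group, 4 of 9 passed in edgeR (Igha, Igkc, Ighg3 and Jchain, adjusted p from 0.000393 to 0.000726), and 436 of all 17413 genes were called higher in that fit, beside 15 of 17289 with every library. Without Ighg2c and Ighg3 the median log2 fold change was 2.46 in Winnie and 3.12 in Winnie-Prolapse, and over all genes tested it was -0.01 in both. The 2 comparisons share their C57BL/6 libraries.

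**Figure D1:**
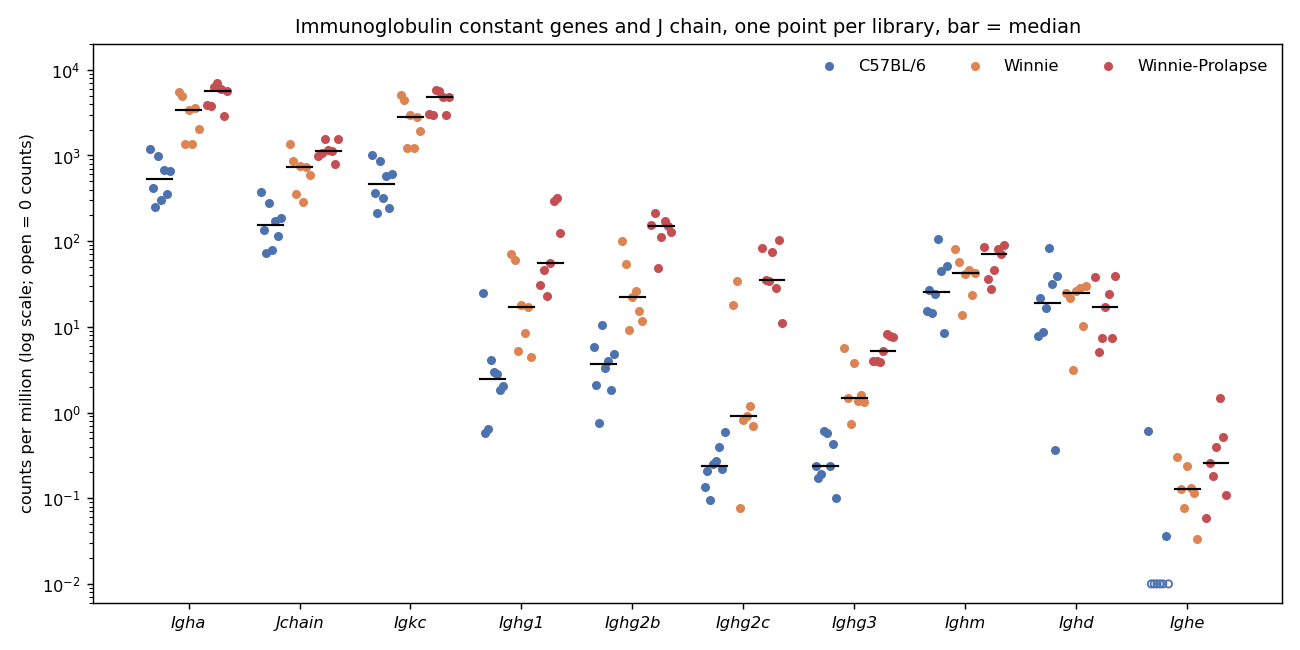
Level of the 10 genes in CPM on a log axis, with 1 point per library, the group shown by colour (C57BL/6 n = 8, Winnie n = 7, Winnie-Prolapse n = 7) and the median of each group as a bar. Open points at the bottom are the 6 C57BL/6 libraries with 0 counts of Ighe. The Igha, Igkc and Ighg3 points of both colitis groups lie above every C57BL/6 point, and the Ighm and Ighd points of the 3 groups overlap.

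Igha, the constant gene of IgA, was the most abundant heavy chain gene in every library. In C57BL/6 its level ran from 248 to 1185 CPM with a median of 538. The Winnie libraries ran from 1349 to 5476 CPM with a median of 3398, and the Winnie-Prolapse libraries from 2918 to 6943 CPM with a median of 5721. Every library of both colitis groups lay above the highest C57BL/6 library, replicate 1. Igha was 5.57-fold higher in Winnie (log2 fold change 2.48 ± 0.40 SE, adjusted p = 0.00186, edgeR) and rose 8.87-fold in Winnie-Prolapse (3.15 ± 0.34, adjusted p = 4.27e-06). Winnie replicates 3 and 5, at 1367 and 1349 CPM, were nearest to the C57BL/6 libraries. Winnie replicates 1, 2, 4 and 6, at 5476, 4909, 3398 and 3535 CPM, lay within the Winnie-Prolapse range. The lower end of that range, 2918 CPM, was Winnie-Prolapse replicate 6, the library with milk genes. Without it the lowest Winnie-Prolapse library was at 3817 CPM, above Winnie replicates 4 and 6.

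Jchain, which encodes the joining chain of dimeric IgA and pentameric IgM, moved with Igha. Its level was 73.6 to 373 CPM in C57BL/6 (median 154), 287 to 1347 CPM in Winnie (median 743) and 799 to 1552 CPM in Winnie-Prolapse (median 1130). The Winnie-Prolapse libraries all lay above C57BL/6, and 5 of 7 Winnie libraries did. Jchain was 4.25-fold higher in Winnie (log2 fold change 2.09 ± 0.39 SE, adjusted p = 0.0035) and rose 7.04-fold in Winnie-Prolapse (2.82 ± 0.33, adjusted p = 7.48e-06).

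Igkc encodes the constant domain of the kappa light chain, which most mouse antibodies carry. It ran from 211 to 1018 CPM in C57BL/6 (median 465), from 1223 to 5062 CPM in Winnie (median 2807) and from 2949 to 5852 CPM in Winnie-Prolapse (median 4782), again with no overlap between C57BL/6 and either colitis group. Its fold change was 5.74 in Winnie (log2 2.52 ± 0.41 SE, adjusted p = 0.00186) and 8.71 in Winnie-Prolapse (log2 3.12 ± 0.35, adjusted p = 5.36e-06). The lambda constant genes, which encode the other light chain type, were also followed. Iglc2 rose 5.11-fold and Iglc3 rose 5.28-fold in Winnie-Prolapse. Iglc1 had the lowest log2 fold change of the tested light chain genes there, 1.96 (adjusted p = 0.00579, edgeR). In Winnie 3 of the 4 light chain constant genes tested (Igkc, Iglc2 and Iglc3) were higher at an adjusted p under 0.05, beside 7.42% of all genes.

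The kappa share of light chain counts was higher in both colitis groups. The share of Igkc among the counts of the light chain constant genes was 87.2% ± 3.20 (SD, n = 8) in C57BL/6, 92.1% ± 3.23 (n = 7) in Winnie and 93.0% ± 1.89 (n = 7) in Winnie-Prolapse. An exact two-sided permutation test over libraries gave an adjusted p of 0.03 for Winnie and 0.00839 for Winnie-Prolapse against C57BL/6. The Winnie call was kept in 8 of the 15 fits that leave out 1 library (adjusted p up to 0.0617, without Winnie replicate 3), and the Winnie-Prolapse call in all 15. Iglc2 and Iglc3 share 7.65 and 10.7% of their windows of 50 bases, so reads could pass between them. The lowest Winnie-Prolapse library, at 90.9%, lay above the highest C57BL/6 library, at 90.2%. All permutation tests of shares in this text belong to a family of 27, formed by 9 shares and 3 comparisons, over which p was adjusted. A single comparison could reach no p below 0.000311 with 8 against 7 libraries, or below 0.000583 with 7 against 7.

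**Figure D2:**
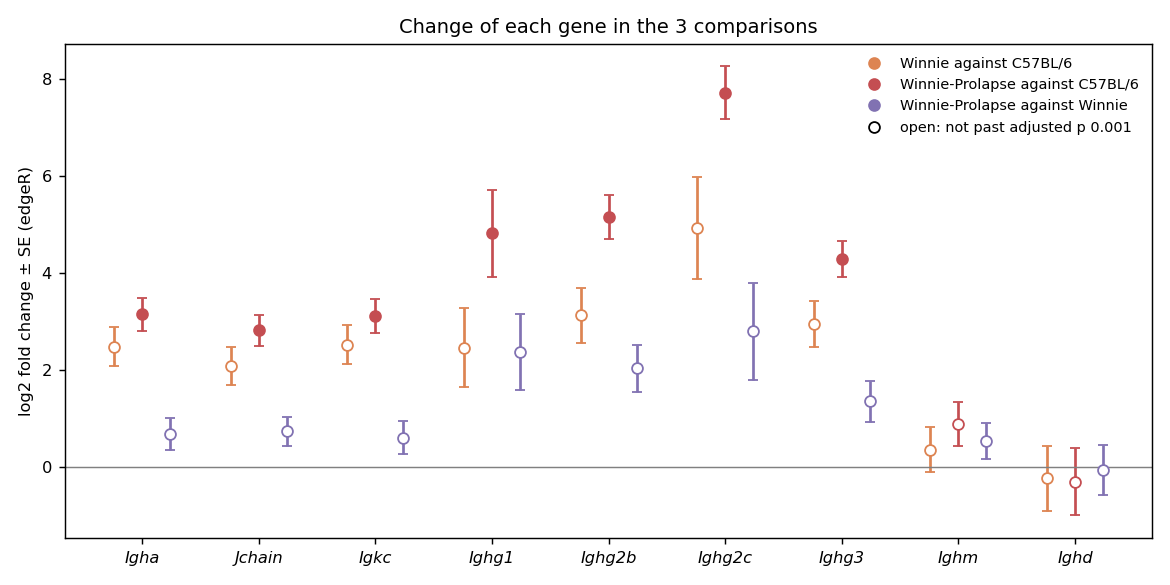
Log2 fold change with its standard error from edgeR for 9 genes (vertical axis) in the 3 comparisons, shown by colour. Filled points passed an adjusted p of 0.001 and 1.5-fold. The 7 filled points all belong to Winnie-Prolapse against C57BL/6 and run from 2.82 for Jchain to 7.72 for Ighg2c, and the points of Ighd lie near 0.

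The IgG subclass genes were low in C57BL/6, and in Winnie-Prolapse against C57BL/6 Ighg1 and Ighg2b had larger fold changes than Igha, Igkc and Jchain. The fitted values of Ighg2c and Ighg3 were larger too, but both met the filter through the colitis libraries and are not read as support. IgG antibodies bind the Fcγ receptors of myeloid cells and fix complement to differing degrees by subclass. Ighg2c is the gene that C57BL/6 mice carry in place of the Ighg2a of other strains. Its fitted fold change was the largest of the 9 genes, a rank that is not read as support for the same reason. Its level was 0.0952 to 0.596 CPM in C57BL/6 (3 to 18 counts per library, median 0.235 CPM) and 11.1 to 104 CPM in Winnie-Prolapse (median 35.1). The Winnie libraries were split, as replicates 1 and 2 stood at 18.1 and 34.4 CPM and the other 5 at 0.0771 to 1.18 CPM. The fitted fold change of Ighg2c was 211 in Winnie-Prolapse (log2 7.72 ± 0.55 SE, adjusted p = 6.27e-08), a value that rests on few C57BL/6 counts and on a gene that met the filter through the group where it is high. In Winnie the log2 fold change was 4.92 ± 1.05 (adjusted p = 0.006), it was 3.85 without Winnie replicate 2 (adjusted p = 0.0152), and limma-voom gave 2.91 (adjusted p = 0.0879), past no limit.

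Ighg2b held the most counts of the 4 IgG genes in 6 of 8 C57BL/6 libraries, 5 of 7 Winnie libraries and 5 of 7 Winnie-Prolapse libraries, and Ighg1 did in the others. It ran from 0.762 to 10.5 CPM in C57BL/6 (median 3.66), from 9.14 to 100.2 CPM in Winnie (median 22.5) and from 48.7 to 215 CPM in Winnie-Prolapse (median 149). A single Winnie library, replicate 3, fell below the highest C57BL/6 library, and every Winnie-Prolapse library lay above it. The fold change was 8.75 in Winnie (log2 3.13 ± 0.57 SE, adjusted p = 0.00329) and 35.6 in Winnie-Prolapse (log2 5.15 ± 0.46, adjusted p = 6.4e-07).

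Ighg1, the subclass gene that interleukin 4 is known to induce, was uneven between libraries. In C57BL/6 it ran from 0.581 to 4.05 CPM in 7 libraries and reached 24.5 CPM in replicate 1. Winnie ran from 4.42 to 70.6 CPM (median 17) and Winnie-Prolapse from 23.1 to 318 CPM (median 55.7). Ighg1 rose 28.2-fold in Winnie-Prolapse (log2 fold change 4.82 ± 0.90 SE, adjusted p = 4e-04), the one called gene whose groups overlapped, through C57BL/6 replicate 1 and Winnie-Prolapse replicate 3. With sex as a covariate its adjusted p was 0.00193 and it was not called. It was called in 11 of the 15 fits that leave out 1 library, with an adjusted p of up to 0.00116 (without C57BL/6 replicate 6) and a log2 fold change from 4.31 without Winnie-Prolapse replicate 6 to 6.08 without C57BL/6 replicate 1. In Winnie the fold change was 5.5 (log2 2.46 ± 0.81, adjusted p = 0.037). Leaving out single libraries gave an adjusted p over 0.05 in 9 of 15 fits, from 0.00512 without C57BL/6 replicate 1 to 0.1 without Winnie replicate 1, and log2 values of 3.71 and 1.96 in those same fits.

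Ighg3, the subclass known from responses to bacterial polysaccharides, held the fewest counts of the 4 IgG genes in all 7 Winnie-Prolapse libraries. It ran from 0.0994 to 0.615 CPM in C57BL/6 (3 to 17 counts), from 0.733 to 5.72 CPM in Winnie and from 3.87 to 8.3 CPM in Winnie-Prolapse, with no overlap between C57BL/6 and either group. Ighg3 too met the filter through the groups where it is high. Its fitted fold change was 7.69 in Winnie (log2 2.94 ± 0.48 SE, adjusted p = 0.00186) and 19.6 in Winnie-Prolapse (log2 4.29 ± 0.37, adjusted p = 4.88e-07). Without Ighg2c and Ighg3, groups did not overlap in 2 of 7 genes in Winnie (Igha and Igkc), where 0.463% of all genes tested did not, or 0.428% without genes of their kind. In Winnie-Prolapse they did not overlap in 4 of 7 genes, where 6.5% of all genes did not, or 6.03% without that kind.

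Ighm and Ighd, the isotype genes of naive B cells, passed neither limit in the edgeR fits of the 3 comparisons. Ighm ran from 8.55 to 106 CPM in C57BL/6 (median 25.5), from 13.6 to 80.5 CPM in Winnie (median 43) and from 27.4 to 90.8 CPM in Winnie-Prolapse (median 71.3). Its log2 fold change was 0.36 ± 0.47 SE in Winnie (adjusted p = 0.599) and 0.89 ± 0.46 in Winnie-Prolapse (adjusted p = 0.112). The highest of all libraries was C57BL/6 replicate 5, and without it the Winnie-Prolapse value of Ighm was 1.35 (adjusted p = 0.0102). It was 1.07 with sex as a covariate (adjusted p = 0.0266) and 1.16 by limma-voom (adjusted p = 0.038), so this value passed 0.05 in some fits. Ighd ran from 0.362 to 82.4 CPM in C57BL/6 (median 19.1), from 3.16 to 30.2 CPM in Winnie (median 24.5) and from 5.08 to 39.3 CPM in Winnie-Prolapse (median 17.2). Its log2 fold change was -0.24 ± 0.66 in Winnie (adjusted p = 0.814) and -0.31 ± 0.70 in Winnie-Prolapse (adjusted p = 0.729), and the sign turned without C57BL/6 replicate 5.

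Ighe, the gene of IgE, was close to the limit of detection and was left out of the main test by the filter. It had 0 counts in 6 of 8 C57BL/6 libraries, 1 count in replicate 7 and 18 counts in replicate 1. At these depths a count of 0 allows up to 3 counts, or 0.0952 to 0.118 CPM. All Winnie libraries had 1 to 11 counts (median 4), and all Winnie-Prolapse libraries had 2 to 45 counts (median 8), with the highest in replicate 5. Fitted without the filter, the adjusted p of Ighe was 0.526 in Winnie and 0.0694 in Winnie-Prolapse against C57BL/6.

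The second question was whether Winnie-Prolapse differed from Winnie. At the limits of the study 0 of 9 genes passed, as did 0% of all 17041 genes, beside 5 of 9 at an unadjusted p under 0.05, where 4743 of all 17041 genes passed. DESeq2 called 1 of 10 higher (Ighg2b), where it called 485 of 21148 genes higher, and limma-voom called 0 of 9, where it called 0 of 17041. At an adjusted p under 0.05, 1 of 9 genes, Ighg2b, was higher in Winnie-Prolapse by edgeR, against 4.27% of all genes, with a log2 fold change of 2.03 ± 0.49 SE (4.09-fold, adjusted p = 0.0253, edgeR). Ighg2b missed that limit without Winnie replicate 4, 5 or 6 (adjusted p of 0.058, 0.056 and 0.0517). Other settings also passed 0.05 for Ighg2c (DESeq2, adjusted p = 0.0344, limma-voom, 0.0266, and all 3 groups in 1 fit, 0.0306), Ighg3 (0.0137, 0.0375 and 0.0321 in the same order) and Ighg1 (DESeq2, 0.0198). In single fits that leave out 1 library the adjusted p went down to 0.0223 for Ighg2c (without Winnie replicate 2), 0.0224 for Ighg3 and 0.049 for Jchain (both without Winnie replicate 1), and 0.0453 for Ighg1 (without Winnie-Prolapse replicate 3). In no gene did the groups separate, where 0.411% of all genes did. Ighg2c had a log2 fold change of 2.80 ± 1.0 (adjusted p = 0.0863), Ighg1 of 2.37 ± 0.79 (adjusted p = 0.0709) and Ighg3 of 1.35 ± 0.43 (adjusted p = 0.0595). Igha, Igkc and Jchain had values of 0.68 ± 0.34, 0.61 ± 0.34 and 0.73 ± 0.30, with adjusted p of 0.207, 0.26 and 0.132. Without Winnie-Prolapse replicate 6, the library with milk genes, the value of Ighg1 was 1.84 and that of Ighg2c was 2.46.

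Levels of different genes were compared per kb of the shortest annotated transcript. On this scale the mean in C57BL/6 was 982 CPM per kb for Igkc, 549 for Igha, 127 for Jchain, 32.5 for Ighd, 24.4 for Ighm, 4.58 for Ighg1, 3.73 for Ighg2b, 0.296 for Ighg3, 0.244 for Ighg2c and 0.0596 for Ighe. Over the libraries the ranges of every neighbouring pair in that order overlapped except Ighg2b, at 0.684 or more, and Ighg3, at 0.568 or less. Such ranges do not compare genes within a library. Within the C57BL/6 libraries there were 25.4 to 33 Jchain counts per 100 Igha counts, so Igha was above Jchain in each. The C57BL/6 medians of Ighg1 and Ighg2b ran the other way, at 2.27 and 3.29. Replicate 1, the highest for Ighg1, stood at 22.8 CPM per kb. In Winnie the order was Igkc at 5303, Igha at 2870, Jchain at 507, Ighg2b at 30.7, Ighm at 29.3, Ighd at 25.7, Ighg1 at 24.3, Ighg2c at 7.23, Ighg3 at 2.11 and Ighe at 0.107 CPM per kb. The order of Ighg2b, Ighm and Ighd there is not firm, as their medians were 20.2, 28.8 and 30.6. Nor is that of Ighg2c and Ighg3, whose medians in Winnie were 0.827 and 1.36. Ighg2c held the fewest counts of the 4 IgG genes in 5 of 7 Winnie libraries. In Winnie-Prolapse the order became Igkc at 8061, Igha at 4619, Jchain at 844, Ighg2b at 126, Ighg1 at 119, Ighg2c at 47.7, Ighm at 41.8, Ighd at 24.6, Ighg3 at 5.39 and Ighe at 0.314 CPM per kb. There the pairs Igha and Jchain, Jchain and Ighg2b, and Ighg3 and Ighe did not overlap, and the other neighbours did. Ighg2b and Ighg1 stood below Ighm and Ighd in C57BL/6 and above them in Winnie-Prolapse by their means, although the ranges of Ighg2b and Ighm overlapped in Winnie-Prolapse. Without Winnie-Prolapse replicate 6 the means of Ighg1 and Ighg2c there were 89.5 and 40.1 CPM per kb, which puts Ighg2c below Ighm (40.8), as their medians over all 7 libraries also do (31.6 and 47.7). Per kb of all annotated exons together, Ighm was above Ighg2b in Winnie (23.2 and 12.8), and in C57BL/6 Ighm was above Ighd (19.3 and 13.7) and Ighg2c above Ighg3 (0.204 and 0.128), so these orders turn with the length used.

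The third question was the isotype composition, taken as the share of each isotype among the counts of the 8 heavy chain constant genes, so that a library serves as its own reference. IgA made up most heavy chain counts in every library, IgM lost share in both colitis groups, and IgG gained share in Winnie-Prolapse. The IgM share was 6.36% ± 6.35 (SD, n = 8) in C57BL/6, 1.5% ± 0.842 (n = 7) in Winnie and 1.23% ± 0.62 (n = 7) in Winnie-Prolapse. It was lower than in C57BL/6 by the exact permutation test in Winnie (difference of -4.86 percentage points, adjusted p = 0.03) and in Winnie-Prolapse (-5.13, adjusted p = 0.0168). The C57BL/6 libraries ran from 1.24% in replicate 1 to 21.3% in replicate 5, so the groups overlapped, and without replicate 5 the Winnie difference was -2.73 (adjusted p = 0.0402) and the adjusted p of Winnie-Prolapse was 0.0315. The Winnie call was kept in 7 of the 15 fits that leave out 1 library, where the adjusted p ran from 0.0108 to 0.0599. The sum that the share is taken of holds the higher Igha counts.

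The IgG share, summed over the 4 subclasses, was 1.23% ± 0.594 (SD, n = 8) in C57BL/6, 1.86% ± 1.05 (n = 7) in Winnie and 6.72% ± 4.70 (n = 7) in Winnie-Prolapse. Single libraries ran from 0.615 to 2.48% in C57BL/6, from 0.85 to 3.37% in Winnie and from 1.71 to 16.2% in Winnie-Prolapse. The Winnie-Prolapse share was higher than that of C57BL/6 by 5.49 percentage points (exact permutation test, adjusted p = 0.00839) and higher than that of Winnie by 4.86 points (adjusted p = 0.03). The 0.63-point difference between Winnie and C57BL/6 did not pass (adjusted p = 0.308). The highest IgG share was that of Winnie-Prolapse replicate 6, the library with milk genes. Without it the Winnie-Prolapse mean was 5.14%, and the differences were 3.91 points against C57BL/6 (adjusted p = 0.018) and 3.28 points against Winnie (adjusted p = 0.042). The latter difference had an adjusted p of 0.0503 without Winnie replicate 3 and also without Winnie replicate 6. Counted against IgA alone, there were 1.42 ± 0.701 IgG counts per 100 Igha counts in C57BL/6, 1.95 ± 1.12 in Winnie, and 7.61 ± 5.92 in the Winnie-Prolapse group, or 5.57 ± 2.65 there without replicate 6.

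The IgA share was 87.9% ± 11.5 (SD, n = 8) in C57BL/6, 95.9% ± 1.95 (n = 7) in Winnie and 91.7% ± 5.16 (n = 7) in Winnie-Prolapse. It was higher in Winnie by 7.94 percentage points (exact permutation test, adjusted p = 0.0493). Without C57BL/6 replicate 5, whose IgA share was 60.9%, the difference was 4.08 points (adjusted p = 0.0672). The call did not hang on that library alone, as it was kept in only 4 of the 15 tests that leave out 1 library. The highest adjusted p of these tests was 0.0944, without Winnie replicate 6. The Winnie-Prolapse share differed from C57BL/6 by 3.76 points (adjusted p = 0.746) and from Winnie by -4.19 points (adjusted p = 0.105), and the latter passed in 1 of the 14 tests that leave out 1 library (adjusted p = 0.0405 without Winnie-Prolapse replicate 3). With Ighm and Ighd left out of the sum both differences turned, to -0.502 points in Winnie (adjusted p = 0.279) and -5.45 points in Winnie-Prolapse (adjusted p = 0.0028). IgD made up 4.49% ± 5.18 of heavy chain counts in C57BL/6, 0.776% ± 0.649 in Winnie, and 0.367% ± 0.29 in the Winnie-Prolapse group. IgE was at most 0.0496% in any library.

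**Figure D3:**
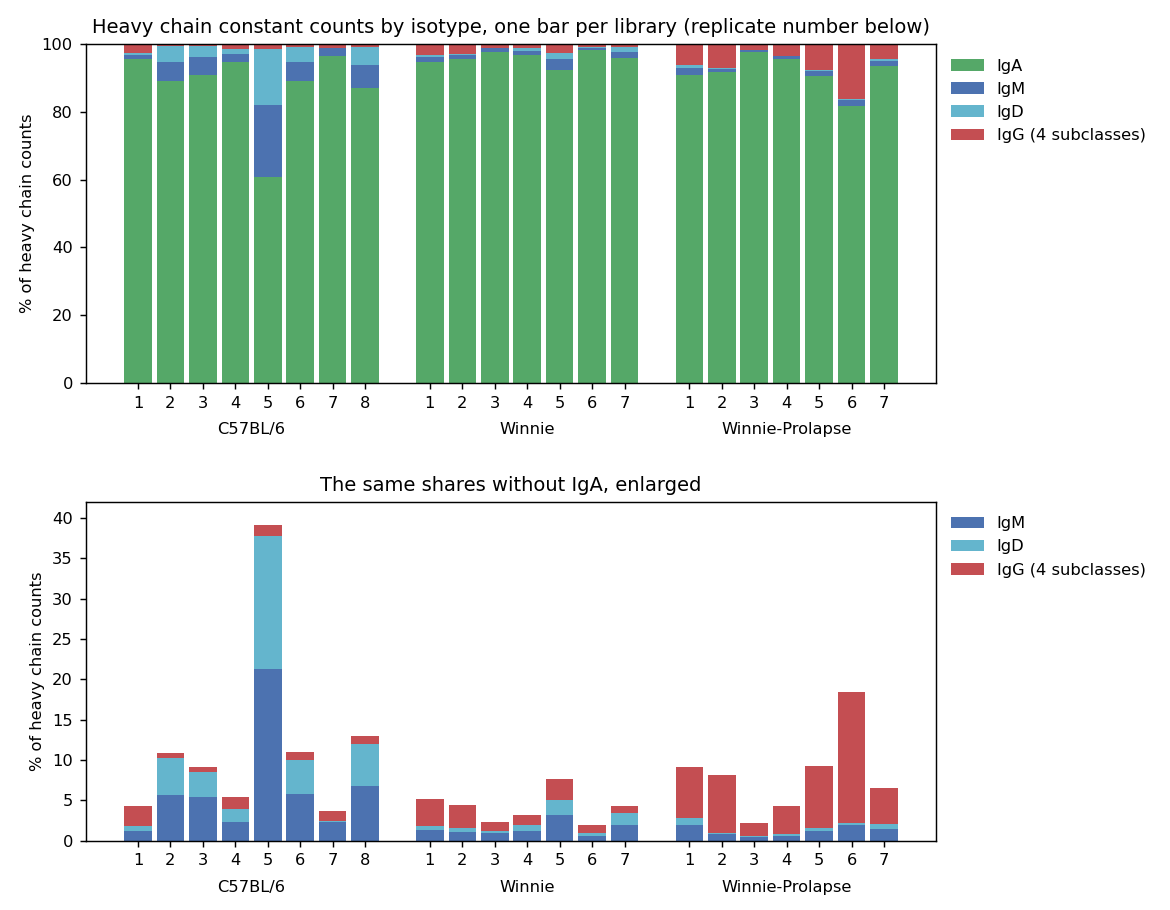
Percent of the counts of the 8 heavy chain constant genes by isotype, with 1 bar per library and the replicate number below it. The upper panel shows all isotypes from 0 to 100% (IgE, at most 0.0496%, is not drawn) and the lower panel enlarges the part that is not IgA. IgM and IgD are large in C57BL/6 replicate 5, where IgA is 60.9%, and IgG is largest in Winnie-Prolapse replicate 6, at 16.2%.

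Within IgG, the composition by subclass was led by Ighg2b and Ighg1 in the mean of every group. Ighg2b held 51% ± 16.7 (SD, n = 8) of IgG counts in C57BL/6, 53.9% ± 12.3 (n = 7) in Winnie and 46.4% ± 14.9 (n = 7) in Winnie-Prolapse. The Ighg1 share was 39% ± 18.5, 35.1% ± 9.14 and 32.8% ± 19.8. Neither share passed the test in any comparison, with adjusted p from 0.544 to 0.808. The Ighg2c share was the one that passed the test, at 4.54% ± 2.48 in C57BL/6, 6.34% ± 7.89 in Winnie, and 18.8% ± 12 in the Winnie-Prolapse group. It was 14.2 percentage points higher in Winnie-Prolapse than in C57BL/6 (exact permutation test, adjusted p = 0.03). The C57BL/6 side rests on 3 to 18 Ighg2c counts per library, so this call is not read as support either. The difference of the Ighg2c share between Winnie-Prolapse and Winnie, 12.4 points, had an adjusted p of 0.105. Ighg2c took 30.2, 31.4 and 30.3% of IgG in Winnie-Prolapse replicates 1, 3 and 4 and 4.09% in replicate 7, so the members of that group differed widely. The Ighg3 share was 5.54% ± 3.96, 4.67% ± 2.54 and 2.03% ± 0.842, and its difference was -3.51 points for Winnie-Prolapse against C57BL/6 (exact permutation test, adjusted p = 0.102) and -2.64 points against Winnie (adjusted p = 0.0612). C57BL/6 shares rest on 53 to 898 IgG counts per library, and Winnie-Prolapse shares on 3641 to 15466.

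**Figure D4:**
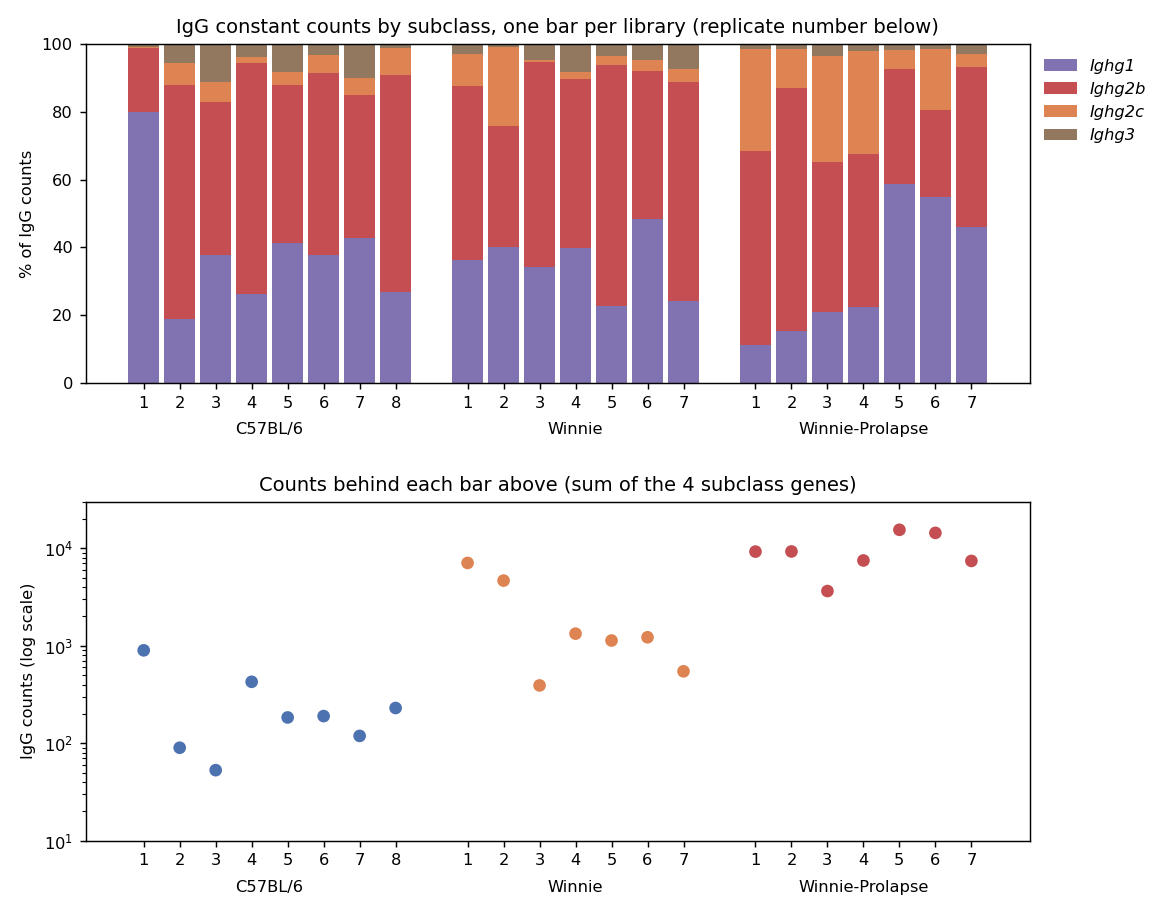
Upper panel, percent of IgG counts from each subclass gene, with 1 bar per library and the replicate number below it. Lower panel, the number of IgG counts behind each bar on a log axis. Ighg2c takes about 30% in Winnie-Prolapse replicates 1, 3 and 4, and Ighg1 takes 79.8% in C57BL/6 replicate 1.

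The J chain was next set against the heavy chains. There were 26 ± 5.03 Jchain counts per 100 heavy chain counts in C57BL/6 (SD, n = 8), 22.1 ± 3.5 in Winnie (n = 7) and 21.9 ± 3.75 in Winnie-Prolapse (n = 7), and neither difference from C57BL/6 passed the exact permutation test (adjusted p = 0.211 for both). Without C57BL/6 replicate 5 both differences passed, at -5.37 and -5.58 (adjusted p = 0.0402 for both). Per 100 Igha counts the values were 29.4 ± 2.83, 23 ± 3.56 and 23.9 ± 4.33, described here without a test. Light chain counts per 100 heavy chain counts were 86.7 ± 10.4, 93.1 ± 4.74 and 83.5 ± 7.95 in the same order, also without a test. The summed level of the heavy chain variable genes, which no constant gene contributes to, was 54 ± 28.1 CPM in C57BL/6, 409 ± 289 CPM in Winnie and 700 ± 330 CPM in Winnie-Prolapse. That of the kappa variable genes was 119 ± 63.8, 713 ± 437 and 1253 ± 388 CPM.

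Igha, Igkc and Jchain moved together over the libraries, and Ighm and Ighd moved with B cell markers. Levels of Igha and Jchain, as log2 CPM centred on the group means, had Pearson's r = 0.95 and Spearman's rho = 0.93 over the 22 libraries, and Igha and Igkc had r = 0.98 and rho = 0.97. The correlation with the sum of 12 B cell markers was r = 0.96 and rho = 0.95 for Ighd and r = 0.91 and rho = 0.85 for Ighm. For Igha it was r = 0.16 and rho = 0.05, and for Jchain r = 0.06 and rho = 0.06. These 6 relations were permuted within groups 100000 times. The 4 strong ones reached the smallest p the permutations can give, 1e-05 (adjusted p = 1.5e-05), and the adjusted p was 0.64 for Igha and 0.81 for Jchain with B cell markers. Without the 2 libraries farthest from the median, r was 0.94 for Igha with Jchain, 0.98 with Igkc, 0.97 for Ighd and 0.87 for Ighm with B cell markers, and -0.11 for Igha and -0.18 for Jchain with them. Within single groups, r of Ighd with B cell markers was 0.955 in C57BL/6 (n = 8), and 0.998 and 0.971 in Winnie and Winnie-Prolapse. In the same order it was 0.984, 0.89 and 0.736 for Ighm with B cell markers, 0.985, 0.963 and 0.795 for Igha with Jchain, and 0.982, 0.995 and 0.95 for Igha with Igkc. All genes of a library share its depth and its mix of cells.

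**Figure D5:**
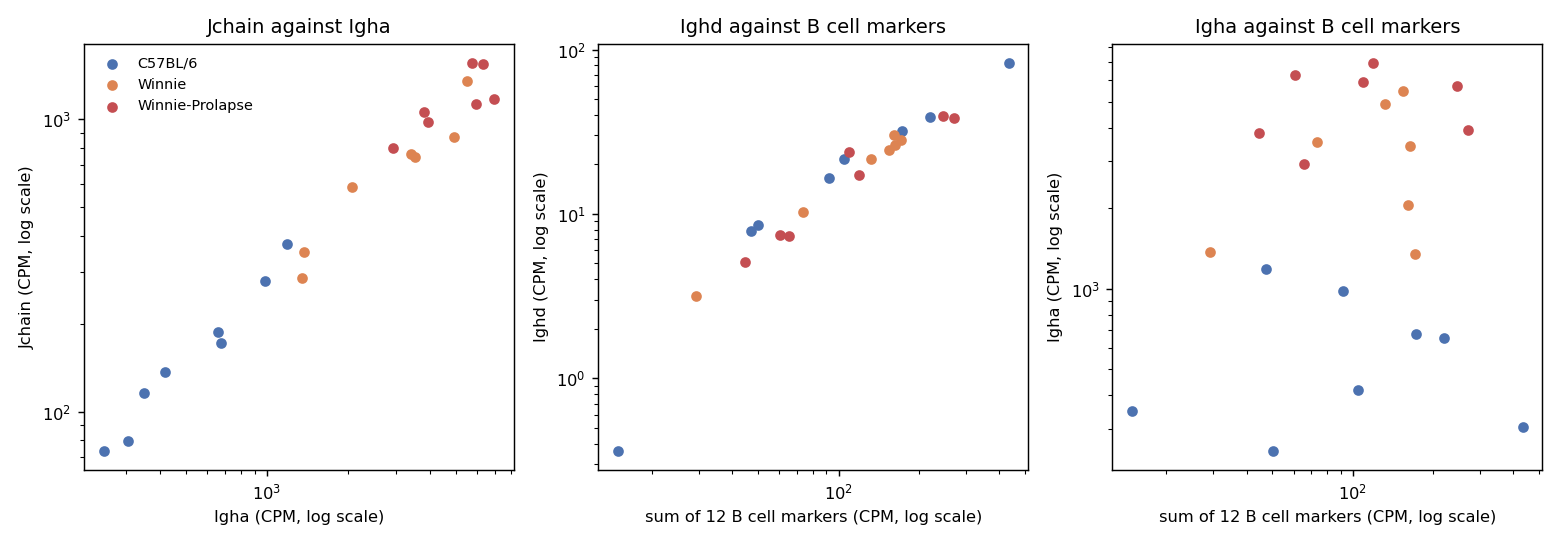
Levels in CPM on log axes, with 1 point per library coloured by group. Left, Jchain against Igha; middle, Ighd against the sum of 12 B cell markers; right, Igha against the same sum. The points of the left and middle panels lie along a line through all groups (centred r = 0.95 and 0.96), and those of the right panel do not (r = 0.16).

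The libraries that stood highest or lowest in Ighm and Ighd also did so in B cell markers. C57BL/6 replicate 5 had 434 CPM of summed B cell markers and the highest Ighm and Ighd of all libraries, and C57BL/6 replicate 7 had 14.9 CPM and the lowest. None of the 12 passed an adjusted p of 0.05 or an unadjusted p of 0.05 in any of the 3 comparisons by edgeR, where the unadjusted limit was passed by 6901 of 17289 genes in Winnie and 10174 of 17397 in Winnie-Prolapse against C57BL/6, and by 4743 of 17041 in Winnie-Prolapse against Winnie. Their median log2 fold change was -0.08 in Winnie and 0.03 in Winnie-Prolapse against C57BL/6. Their summed level was 14.9 to 434 CPM in C57BL/6, 29.1 to 171 CPM in Winnie and 44.5 to 271 CPM in Winnie-Prolapse. There were 61.1 ± 25 Ighd counts per 100 Ighm counts in C57BL/6 (SD, n = 8), 47 ± 17.9 in Winnie and 29.6 ± 13.6 in Winnie-Prolapse (n = 7 each), described without a test.

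The genes most like Igha over the 22 libraries, other immunoglobulin genes passed over, were Jchain (r = 0.95), Derl3 (0.88), Glipr1 (0.84), Tnfrsf17 (0.82) and Mzb1 (0.78), by Pearson's r of log2 CPM centred on group means. Those most like Jchain were Tnfrsf17 (0.90), Eaf2 (0.82), Derl3 (0.81), Ccr10 (0.80) and Glipr1 (0.78). Tnfrsf17 encodes BCMA, a survival receptor of plasma cells, Derl3 and Mzb1 act in the endoplasmic reticulum of secreting cells, and Ccr10 is a chemokine receptor of IgA plasma cells. Among the 50 most similar of 17769 genes, 24 for Igha and 22 for Jchain were immunoglobulin genes.

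The secretory programme of plasma cells was followed as a list of 15 genes. In Winnie-Prolapse against C57BL/6, 11 of 15 rose and 0 fell, where 9.84% of all genes rose, with a median log2 fold change of 1.65 beside -0.01 over all genes. They were Derl3 (2.98), Prdm1 (2.80), Mzb1 (2.36), Fkbp11 (2.25), Slamf7 (2.02), Cd28 (1.81), Tnfrsf17 (1.65), Irf4 (1.63), Eaf2 (1.28), Xbp1 (0.93) and Txndc5 (0.62). Prdm1 and Irf4 encode transcription factors of plasma cell differentiation, and Xbp1 drives the secretory apparatus. The list is not particular to plasma cells. In C57BL/6 the mean was 181 CPM for Xbp1 and 160 CPM for Txndc5, beside 3.42 CPM for Mzb1 and 0.663 CPM for Tnfrsf17. Which cells the RNA of these genes came from was not tested. Cd28 and Slamf7 are also expressed by T and other immune cells, and 5 of 7 T cell markers rose in the same comparison. In Winnie 1 of 15 passed, Prdm1 (2.04 ± 0.26 SE, adjusted p = 0.000937), beside 0.0868% of all genes, and 9 of 15 were higher at an adjusted p under 0.05, beside 7.42%. Sdc1, the plasma cell surface marker CD138 that colon epithelium also expresses, had a value of 0.22 in Winnie-Prolapse (adjusted p = 0.19). In Winnie-Prolapse against Winnie, 0 of 15 passed either limit, beside 3 at an unadjusted p under 0.05, which 4743 of all 17041 genes passed.

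Class switching and its cues were followed as 20 genes, of which 14 were tested in Winnie-Prolapse against C57BL/6. There 4 were called higher and 0 lower, where 9.84% of all genes were called higher. They were Tgfb1 (log2 fold change 1.46 ± 0.24 SE), Tnfsf13b (1.33 ± 0.22), Il10 and Ifng. Il10 and Ifng did not pass the filter on low counts in Winnie against C57BL/6 and entered this comparison through their level in Winnie-Prolapse, so their calls are not read as support. Without genes of this kind the called genes were Tgfb1 and Tnfsf13b, where 9.21% of 16380 genes were called higher. Interferon γ and TGFβ are known cues for switching to IgG2c and to IgA respectively, and Tnfsf13b encodes BAFF, a survival factor of B cells. Ifng was at 0 to 0.0342 CPM in C57BL/6, 0.0338 to 2.02 CPM in Winnie and 1.39 to 10.2 CPM in Winnie-Prolapse. Among the most abundant genes of the list, the DNA repair genes Apex1 and Msh6 had log2 fold changes of 0.28 and -0.09. In Winnie 0 of 12 passed and 4 of 12 were higher at an adjusted p under 0.05, where 7.42% of all genes were. In Winnie-Prolapse against Winnie 3 of 16 were higher at that limit, where 4.27% of all genes were, and they were Ifng (2.75), Cd40 (1.05) and Il6, the last of which met the filter through Winnie-Prolapse.

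Transport and Fc receptor genes formed the last list. Pigr, the receptor that carries dimeric IgA and IgM across the epithelium, did not pass in any comparison. It was at 4659 CPM on average in C57BL/6, 5142 CPM in Winnie and 4035 CPM in Winnie-Prolapse. Its range was 3499.9 to 5777 CPM in C57BL/6, 4402 to 5603 CPM in Winnie and 2282 to 5826 CPM in Winnie-Prolapse. The sum of the whole list, most of which is Pigr, was 2422 to 3558 CPM in Winnie-Prolapse replicates 2, 4, 5 and 6, below the lowest C57BL/6 library at 3587 CPM. Pigr had a log2 fold change of 0.23 ± 0.12 SE in Winnie (adjusted p = 0.169) and -0.09 ± 0.25 in Winnie-Prolapse (adjusted p = 0.772). Of 12 genes tested, 6 rose in Winnie-Prolapse against C57BL/6, beside 9.84% of all genes. Among them were the Fcγ receptor genes Fcgr4 (4.26), Fcgr1 (3.00), Fcgr3 (2.44) and Fcgr2b (2.21). The others were Fcer1g (2.15), which encodes a signalling chain of some Fc receptors, and the cytosolic antibody receptor Trim21 (0.80). Fcgrt, which encodes the neonatal Fc receptor for IgG, was lower at an adjusted p under 0.05 in Winnie (-0.65 ± 0.13, adjusted p = 0.00413) and in Winnie-Prolapse (-0.75 ± 0.18, adjusted p = 0.00258). In Winnie 5 of 12 were higher at that limit, beside 7.42% of all genes, and 0 of 12 passed the limits of the study. In Winnie-Prolapse against Winnie, 5 of 12 were higher at an adjusted p under 0.05, beside 4.27% of all genes, which were Fcgr4 (1.60), Fcgr3 (1.36), Fcgr1 (1.22), Fcer1g (1.08) and Fcgr2b (0.98), and 0 of 12 passed the limits of the study.

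Sex was compared over all groups and passed an adjusted p of 0.05 for 0 of 9 genes, where 14 of all 17769 genes passed. The log2 difference of males against females ran from -0.92 ± 0.53 SE for Ighd to 1.27 ± 0.78 for Ighg2c, with adjusted p of at least 0.966 (edgeR). At an unadjusted p under 0.05 it passed for 0 of 9 genes, where 777 of 17769 genes did. Some single libraries moved it past the unadjusted limit when left out, as the log2 difference was 2.001 for Ighg2c without Winnie-Prolapse replicate 6 (edgeR adjusted p = 0.906), -0.89 for Ighm and -0.76 for Ighg3 without Winnie replicate 1 (adjusted p = 0.958 for both), and -1.03 for Ighd without C57BL/6 replicate 7 (adjusted p = 0.954). Ighd also passed without Winnie-Prolapse replicate 1 (-1.16, edgeR adjusted p = 0.834). Ighm also passed without C57BL/6 replicate 7 (-0.76, edgeR adjusted p = 0.954), Winnie-Prolapse replicate 1 (-0.79, adjusted p = 0.834) and Winnie replicate 6 (-0.77, adjusted p = 0.999). The value of Ighg1 turned from 0.38 to -0.52 without C57BL/6 replicate 1. The test of whether a group difference itself differed between males and females had an adjusted p of at least 0.171 for every gene and comparison. In Winnie-Prolapse against Winnie the difference was -4.69 ± 1.29 for Ighg1 (adjusted p = 0.171, edgeR) and -4.16 ± 1.23 for Ighg2c (adjusted p = 0.179), in Winnie-Prolapse against C57BL/6 it was -4.51 ± 1.30 for Ighg1 (adjusted p = 0.93), and in Winnie against C57BL/6 it was 5.29 ± 1.60 for Ighg2c (adjusted p = 0.23) and 1.71 ± 0.79 for Ighm (adjusted p = 0.357). These 5 of 27 tests had an unadjusted p under 0.05. They were 2 of 9 genes in Winnie-Prolapse against Winnie, where 2833 of all 17769 genes passed that limit, 1 of 9 in Winnie-Prolapse against C57BL/6 (883 of 17769) and 2 of 9 in Winnie against C57BL/6 (2418 of 17769).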

How the data were processed

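Distal colon poly(A) RNA of 22 mice was sequenced as stranded paired-end libraries. The authors aligned reads to GRCm38 with the RNAsik pipeline and deposited raw read counts per gene from featureCounts; STAR, featureCounts and limma are named in the submitters' processing notes. The annotation release and the strand and multi-mapping settings are not given in the sources used here. Groups, their sizes, sex and age came from the labels. The study's text describes no prolapse group and gives a different number of Winnie mice. Members were the 10 genes with the given symbols, and the members and lists were chosen with earlier results of these data known.

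Each comparison was fitted on its own libraries with edgeR 4.0.16 in R 4.3.3 (TMM, filterByExpr, quasi-likelihood test, Benjamini-Hochberg adjustment over all genes tested). A call needed an adjusted p under 0.001 and 1.5-fold, the limits of the study. CPM used library totals. Shares were compared with exact two-sided permutation tests. Nothing says how the mice were drawn, so p-values measure the spread between these libraries. Counting limits of a 0 (3 counts) cover counting error only. Alternatives used DESeq2 1.42.0, limma 3.58.1, other library sizes and filters, sex as a covariate and leaving out each library. Named genes were all members, list genes that were called or were among the 3 most abundant, and the 5 most like Igha and Jchain. Cd40 and Il6 were named as higher at an adjusted p under 0.05 (edgeR) in Winnie-Prolapse against Winnie. Methods were tested on simulated data. A few genes of the lists are not reported here by name. Levels per kb of all exons, means without the library with milk genes, and counts without genes mostly below the filter level in their lower group, were added after the data were seen.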

Additional observations from a re-analysis of the deposited data

Results flagged for a closer look

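A library was picked out where its gap to the next one was large for the spread of its group. Of 57 sets of values tested, 12 had such a library, and chance alone picks about 1 in 20. C57BL/6 replicate 5 stood above its group in Ighm (106.5 CPM) and Ighd (82.4 CPM), below it in the IgA share of heavy chain counts (60.86%) and above it in the IgM share (21.27%). C57BL/6 replicate 1 stood above its group in Ighg1 (24.5 CPM), in Ighe (0.615 CPM), in the IgG share of heavy chain counts (2.475%) and in the Ighg1 share of IgG counts (79.8%). C57BL/6 replicate 8 was low in the Igkc share of light chain counts (80.4%). Winnie replicate 2 was high in the Ighg2c share of IgG counts (23.1%). Winnie-Prolapse replicate 5 was high in Ighe (1.47 CPM), and Winnie-Prolapse replicate 6 in the IgG share of heavy chain counts (16.2%). Milk genes took 17.96% of the counts of that last library, and their part in its IgG share was not tested.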

How the results depend on the processing

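No paired analysis was possible because the replicate numbers only follow accession order. Of 9 genes (10 by DESeq2), the number called in Winnie against C57BL/6 was 0 at the limits of the study, 6 by DESeq2, 5 with all 3 groups in 1 fit, 7 at an adjusted p under 0.05, and 0 to 4 when 1 library was left out. The fit of all 3 groups called 174 of all 17769 genes higher in Winnie against C57BL/6. In Winnie-Prolapse against Winnie the number of these genes called was 0, with 1 by DESeq2 and 1 at an adjusted p under 0.05. The sign of Ighd turned under limma-voom in Winnie (0.45) and Winnie-Prolapse (0.26) against C57BL/6, and with sex as a covariate in Winnie-Prolapse against Winnie (0.018). Leaving out 1 library moved its log2 fold change from -0.43 to 0.29, from -0.62 to 0.23 and from -0.35 to 0.11 in the 3 comparisons. The IgA share in Winnie minus C57BL/6 was 7.94 points with permutation within each sex (adjusted p = 0.0579), 8.01 with counts per kb of the shortest transcript (adjusted p = 0.0535), a setting chosen after seeing the data, and -0.502 with Ighm and Ighd left out of the sum (adjusted p = 0.279). With that sum the IgA share was -5.45 points for Winnie-Prolapse against C57BL/6 (adjusted p = 0.0028) and -4.94 against Winnie (adjusted p = 0.00699). Leaving out 1 library, the IgA share differences ran from 4.08 to 9.15 for Winnie against C57BL/6, from -0.109 to 5.44 for Winnie-Prolapse against C57BL/6 and from -5.20 to -2.50 for Winnie-Prolapse against Winnie. The IgM share ran from -5.59 to -2.73 for Winnie against C57BL/6 and from -0.41 to 0.00806 for Winnie-Prolapse against Winnie, where the IgG share ran from 3.28 to 5.70, the Ighg1 share of IgG from -6.62 to 1.31, the Igkc share from -0.0219 to 1.79 and Jchain per 100 heavy chain counts from -1.07 to 0.749. In Winnie against C57BL/6 the shares of IgG ran from -6.75 to 1.96 for Ighg1, from -1.62 to 5.95 for Ighg2b and from -0.994 to 2.76 for Ighg2c. The cause of these shifts was not tested. In C57BL/6 low counts limit Ighg2c, Ighg3 and Ighe.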

Other observations

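Within Winnie-Prolapse the values of Ighg1 and Ighg3 divided by sex, a split chosen after the values were seen and not tested within the group. The Ighg1 share of IgG counts was 11.2 to 22.5% in the 4 males and 45.9 to 58.8% in the 3 females. In Winnie it was 34.2 to 40% in the 3 males and 22.7 to 48.4% in the 4 females, and in C57BL/6 18.9 to 79.8% in the 4 males and 27 to 42.9% in the 4 females. The level of Ighg1 in Winnie-Prolapse was 23.1 to 55.7 CPM in males and 125 to 318 CPM in females, that of Ighg3 was 3.87 to 5.16 CPM in males and 7.69 to 8.3 CPM in females, and the ranges of Ighg2b and Ighg2c overlapped between the sexes. The females include replicate 6, the library with milk genes. In Winnie, Ighg2c was 18.1 and 34.4 CPM in 2 of the 3 males, 0.0771 CPM in the third, and 0.703 to 1.18 CPM in the 4 females. The number of Ighd counts per 100 Ighm counts was 23.3 to 37.3 in the 3 Winnie males and 44 to 70.3 in the 4 Winnie females. The sexes overlapped in C57BL/6 (males 51.1 to 80.6, females 4.24 to 77.4) and in Winnie-Prolapse (males 14 to 45.1, females 10.3 to 43.3).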
